A study of Rattus norvegicus with 18 samples.

Results

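The alveolar type 1 genes examined were the 8 genes *Ager*, *Pdpn*, *Emp2*, *Aqp5*, *Clic5*, *Akap5*, *Rtkn2*, and *Hopx*. They were matched by name among the 22081 genes listed for each rat, and all 8 were found at all 3 time points. The RNA-seq data came from the lungs of 18 male F344 rats, killed at Years 0.5, 1, and 2 of exposure. Of the animals killed each time, 3 of the control group and 3 of the MWCNT group were sequenced, so no rat was sampled more than once. Control rats received the vehicle, saline containing Tween 80, and MWCNT-treated rats received MWNT-7, a multiwalled carbon nanotube with mostly straight fibers, at 0.5 mg/kg in that vehicle. Both were instilled into the trachea once every 4 weeks from 9 weeks of age, so the control rats also went through repeated instillation. Each comparison of treated with control rats was made at the same age, whereas comparisons between years were of rats of different ages. RNA was taken from small pieces of the accessory lobe after tissue with visible tumor nodules had been set aside, so the values describe non-tumor lung that can still hold scattered lesions.

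Alveolar type 1 cells are the broad, very thin epithelial cells that cover nearly all of the gas-exchange surface and share a basement membrane with the capillaries beneath. Alveolar type 2 cells, which make surfactant, are their progenitors, and after injury they multiply, pass through a transitional state, and flatten into new type 1 cells. The Hippo pathway effectors YAP and TAZ, acting with TEAD factors and NKX2-1, are known to hold cells in the type 1 state.

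All 8 genes were lower in the lungs of MWCNT-treated rats than in those of control rats at every time point. At Year 2, *Rtkn2* stood at 30.1% of its control level, *Akap5* at 37.8%, and *Clic5* at 42.5%, while *Ager* kept 64.4% and *Pdpn* 60.8% (from the fitted fold changes, n = 3 rats per group). The falls were smaller at Years 0.5 and 1, with a median level of 70.4% and 70.7% of control over the 8 genes, against 52.3% at Year 2. In whole-lung RNA, fewer cells of a type and less RNA per cell cannot be told apart.

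By edgeR's quasi-likelihood test with Benjamini-Hochberg adjustment over all genes, 8 of 8, 7 of 8, and 8 of 8 were lower at an FDR below 0.05 at Years 0.5, 1, and 2. Among all genes tested, 18.6%, 19.6%, and 24.0% were lower by the same rule. With the additional limit of an absolute log2 fold change above 1, which defines a differentially expressed gene (DEG) here, the counts were 0, 1 (*Rtkn2*), and 3 (*Rtkn2*, *Akap5*, and *Clic5*) of 8, against 3.03%, 4.09%, and 8.22% of all genes called lower. The median log2 fold change of the 8 genes was -0.51, -0.50, and -0.93, and that of all genes tested was -0.02, 0.00, and -0.01. In TPM, a level scaled for transcript length and library total, the highest MWCNT-treated rat lay below the lowest control rat for 8 of 8 genes in each year, as did 40.7%, 46.8%, and 45.7% of all genes tested. In log2 CPM after TMM scaling the groups again did not overlap for any of the 8 genes, against 25.5%, 26.9%, and 28.9% of all genes that were lower without overlap. With scaling by library size alone, the median of all genes moved by -0.10, -0.13, and -0.17 on the log2 scale, and no treatment comparison of the 8 genes turned direction under any scaling.

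**Figure D1:**
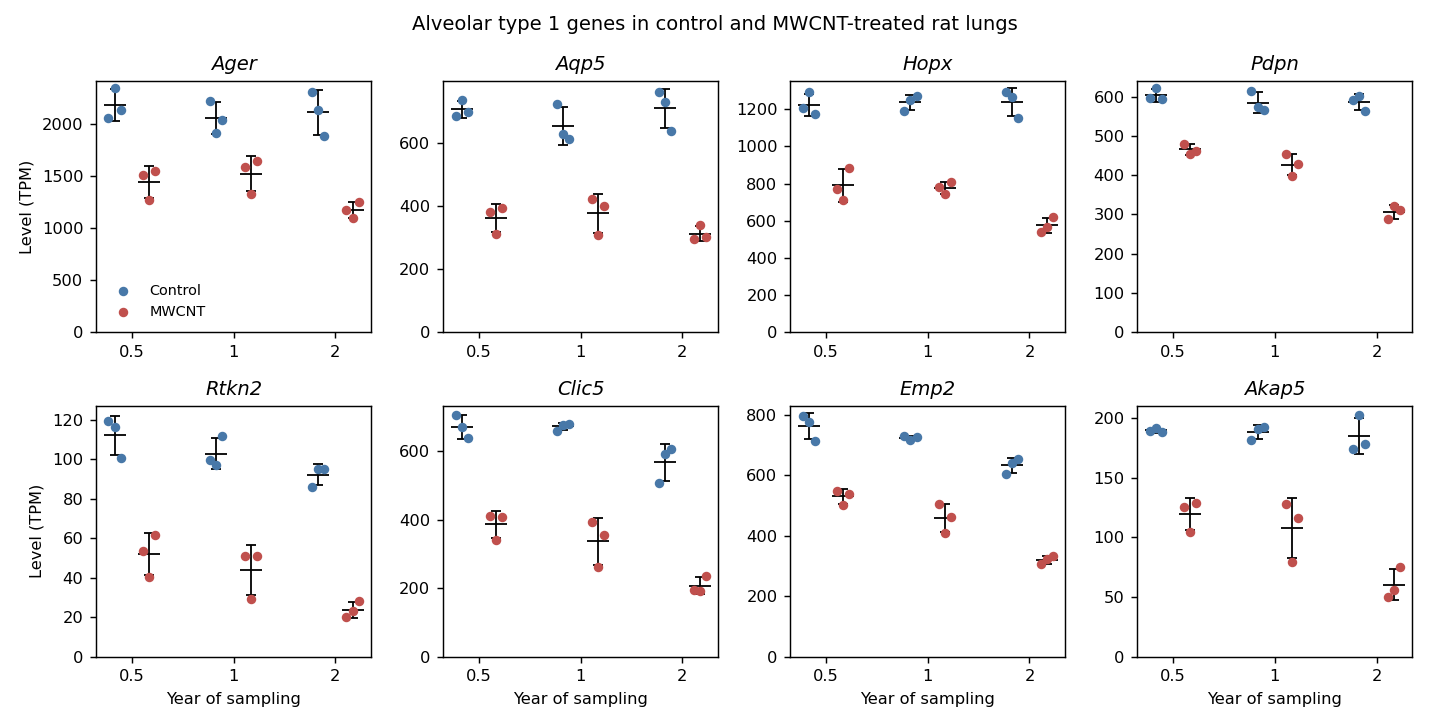
Level in TPM (vertical axis, from 0) of each of the 8 alveolar type 1 genes by year of sampling, with 1 point per rat and a black bar for the mean ± SD of the 3 rats in each group, control in blue and MWCNT-treated in red. The red points lie below the blue points in all 8 panels and all 3 years, and those of Year 2 are the lowest for the group means of every gene.

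The control libraries held 13297643 to 17868851 counts, and those of treated rats 14661589 to 21130757. Each of the 8 genes was counted deeply, from a minimum of 562 counts (*Rtkn2*) to a maximum of 30595 (*Ager*) in a rat, so none was limited by low counts. The genes lie on 7 chromosomes of the Rnor_6.0 (rn6) assembly as positioned in the deposited tables, with *Ager* at chromosome 20, 4363152 to 4366079, and *Rtkn2* on the same chromosome at 21932878 to 22004279. *Aqp5* lies on chromosome 7 (141249044 to 141252578), *Hopx* on 14 (33354807 to 33362551), *Pdpn* on 5 (161947137 to 161981441), *Clic5* on 9 (19121677 to 19372673), *Emp2* on 10 (5433248 to 5467839), and *Akap5* on 6 (99356509 to 99361909). The annotated spans run from 2928 bases for *Ager* to 250997 bases for *Clic5*.

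Because the 8 genes moved together, their promoters were compared for short elements, using RefSeq sequences of the GRCr8 assembly from 250 bases before to 50 bases after each start site, which matched 8 of 8 genes. The promoters shown are those of *Rtkn2*, the gene with the largest fall, and of *Ager*, the most abundant and the least lowered at Year 2. They hold the most and, tied with *Hopx*, the fewest copies of one element. Capitals mark the GC box, GGGCGG on either strand. *Rtkn2* is read from chr20:20608813-20609112 and *Ager* from chr20:4155636-4155935, both on the minus strand of GRCr8.
Rtkn2: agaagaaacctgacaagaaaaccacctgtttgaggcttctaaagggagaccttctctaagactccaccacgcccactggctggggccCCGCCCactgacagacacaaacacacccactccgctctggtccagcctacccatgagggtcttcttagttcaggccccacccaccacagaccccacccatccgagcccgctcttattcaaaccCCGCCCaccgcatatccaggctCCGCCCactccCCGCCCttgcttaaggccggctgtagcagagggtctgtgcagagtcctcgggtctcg
Ager: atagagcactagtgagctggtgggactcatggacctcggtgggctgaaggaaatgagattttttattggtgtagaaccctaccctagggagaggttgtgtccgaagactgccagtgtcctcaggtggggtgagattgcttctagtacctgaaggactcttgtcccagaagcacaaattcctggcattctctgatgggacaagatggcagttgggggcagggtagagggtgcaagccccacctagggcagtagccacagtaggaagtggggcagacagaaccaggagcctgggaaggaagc
The *Rtkn2* promoter held 4 GC boxes, 3 of them within 40 bases before the start site, and the *Ager* promoter held none. GC boxes were found in 6 of the 8 promoters (all but *Ager* and *Hopx*) and in 33.1% of 33469 rat promoters of the same length. Over the 8 genes, their number did not follow the size of the fall. *Clic5*, at 42.5% of control at Year 2, held fewer than *Pdpn* (60.8%) and *Emp2* (59.0%). The GC content was above the 51.7% median of all promoters in 7 of the 8, from 54.3% in *Ager* to 82.3% in *Aqp5*, with *Pdpn* at 51.0%. The TEAD element GGAATG, the NKX2-1 element CAAGTG, the forkhead element TGTTTAC, and the TATA box TATAAA, searched on both strands, were in 0 of the 8 promoters and in 14.2%, 14.1%, 3.78%, and 14.2% of all promoters. These matches describe letters in a short window and were not tied to any measurement of binding.

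Of the genes for proteins of the cell surface, *Ager* encodes the receptor for advanced glycation end products, which is unusually abundant on type 1 cells. In the control rats, *Ager* stood at 2053, 2350, and 2139 TPM at Year 0.5, at 2218, 1918, and 2040 TPM at Year 1, and at 2311, 2139, and 1884 TPM at Year 2. In the MWCNT-treated rats it stood at 1506, 1271, and 1553 TPM, then at 1592, 1331, and 1650 TPM, and finally at 1172, 1095, and 1255 TPM. The control rats of the 3 years overlapped each other, and all treated rats lay below them. The log2 fold change was -0.45 ± 0.09 (SE, FDR 0.00392) at Year 0.5 and -0.63 ± 0.11 (FDR 0.00122) at Year 2. At Year 1 it was -0.20 ± 0.10, which did not pass the test (FDR 0.124). That call depended on scaling, since with library size alone the Year 1 value was -0.34 (FDR 0.0206) and with limma on log2(TPM + 1) it was -0.44 (FDR 0.00864).

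*Pdpn* encodes podoplanin, a mucin-type glycoprotein long used to stain type 1 cells. Its control levels were 596, 623, and 593 TPM at Year 0.5, 616, 573, and 565 TPM at Year 1, and 592, 602, and 564 TPM at Year 2. The treated rats held 480, 455, and 462 TPM, then 453, 399, and 429 TPM, and then 288, 322, and 311 TPM. The spread within each group was narrow, and the Year 2 treated rats lay well apart from all other rats. The log2 fold changes were -0.23 ± 0.06 (SE, FDR 0.0141), -0.22 ± 0.08 (FDR 0.0477), and -0.72 ± 0.07 (FDR 6.13e-05). The Year 1 call was marginal: it was lost with the replicate number as a block (FDR 0.0801), with no filter on low counts (FDR 0.0584), and on leaving out any control rat (FDR 0.145, 0.0840, and 0.0864 for replicates 1, 2, and 3) or MWCNT-treated replicate 1 (FDR 0.0683) or 3 (FDR 0.116) of Year 1. The Year 0.5 call was lost without MWCNT-treated replicate 2 of that year (FDR 0.0575). Podoplanin is also made by lymphatic endothelium and mesothelium. The summed level of 5 lymphatic markers ranged from 242 to 423 TPM in control rats and from 63.1 to 199.6 TPM in treated rats, and *Lyve1*, at a mean of 177 TPM over all rats, made up most of it. The defining marker *Prox1*, named after its values were seen, had a mean of 1.07 TPM and log2 fold changes of -0.31, -0.10, and 0.06, none past the test. The 5 mesothelial markers summed to between 46.7 and 165 TPM in control rats and between 83.6 and 140 TPM in treated rats. The part of these cells in the *Pdpn* values was not tested.

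*Emp2*, whose product is a tetraspan membrane protein that works with caveolin and integrins, stood at 796, 777, and 714 TPM, 729, 715, and 727 TPM, and 603, 641, and 654 TPM in control rats of Years 0.5, 1, and 2. In treated rats it stood at 550, 502, and 539 TPM, 505, 410, and 463 TPM, and 307, 324, and 333 TPM. The log2 fold changes were -0.38 ± 0.07 (SE, FDR 0.00277), -0.42 ± 0.08 (FDR 0.00316), and -0.76 ± 0.07 (FDR 2.7e-05). *Emp2* was the single gene of the 8 that was also lower at Year 2 than at Year 0.5 in control rats, by 0.26 ± 0.06 on the log2 scale (FDR 0.0230). *Rtkn2* (-0.28 ± 0.16, FDR 0.295) and *Clic5* (-0.24 ± 0.11, FDR 0.182) changed by a like amount without passing. In control rats, age and the number of vehicle instillations cannot be told apart.

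Among the channel proteins, *Aqp5* encodes the apical water channel of type 1 cells. Its control levels ranged from 613 to 762 TPM over the 9 rats with no order by year, and its treated levels were 381, 313, and 396 TPM at Year 0.5, 425, 308, and 402 TPM at Year 1, and 295, 339, and 302 TPM at Year 2. The treated rats of the 3 years overlapped each other, and all lay below the control rats. The log2 fold changes were -0.82 ± 0.09 (SE, FDR 0.000151), -0.56 ± 0.11 (FDR 0.00434), and -0.97 ± 0.10 (FDR 5.13e-05). Aquaporin 5 is also found in airway epithelium and glands, and the 5 club and ciliated markers analysed summed to between 19230 and 34063 TPM in control rats and between 10753 and 16054 TPM in treated rats. The club cell gene *Scgb1a1*, at a mean of 18841 TPM over all rats, made up most of that sum. The part of airway cells in the *Aqp5* values was not tested.

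*Clic5*, which encodes a chloride intracellular channel family protein bound to the ezrin and actin cortex, stood at 706, 670, and 637 TPM, 660, 678, and 680 TPM, and 506, 592, and 605 TPM in control rats of Years 0.5, 1, and 2. In treated rats the levels were 412, 342, and 408 TPM, 394, 262, and 356 TPM, and 194, 193, and 236 TPM. The log2 fold change went from -0.65 ± 0.08 (SE, FDR 0.000437) and -0.77 ± 0.12 (FDR 0.00106) to -1.23 ± 0.10 (FDR 1.21e-05), so that at Year 2 *Clic5* was a DEG.

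Of the signaling proteins, *Akap5* encodes an anchor that holds protein kinase A near the membrane. Its control levels stayed between 174 and 203 TPM in all 9 rats. The treated rats held 126, 105, and 129 TPM at Year 0.5, 128, 79.2, and 116 TPM at Year 1, and 50.2, 55.8, and 74.8 TPM at Year 2. All treated rats lay below all control rats, and those of Year 2 lay below those of Years 0.5 and 1. The log2 fold changes were -0.52 ± 0.08 (SE, FDR 0.000858), -0.58 ± 0.13 (FDR 0.00735), and -1.40 ± 0.13 (FDR 2.9e-05).

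*Rtkn2*, which encodes rhotekin 2, was the least abundant of the 8 and fell the most. In control rats it stood at 119, 116, and 101 TPM at Year 0.5, 99.4, 97.0, and 112 TPM at Year 1, and 85.8, 95.0, and 95.2 TPM at Year 2. In treated rats it stood at 53.6, 40.6, and 61.8 TPM, 51.0, 29.5, and 51.2 TPM, and 20.1, 23.3, and 28.1 TPM. The log2 fold changes were -0.97 ± 0.13 (SE, FDR 0.000626), -1.003 ± 0.16 (FDR 0.00155), and -1.73 ± 0.10 (FDR 2.60e-06). At Year 2, 1.75% of all genes tested had a lower fold change than *Rtkn2*. At Years 0.5 and 1 the fold change sat at the DEG limit: *Rtkn2* became a DEG at Year 0.5 without control replicate 3 or MWCNT-treated replicate 3, and it was no longer a DEG at Year 1 without control replicate 3 or MWCNT-treated replicate 2.

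The nuclear protein of the set, encoded by *Hopx*, is a homeodomain protein without DNA binding that acts as a transcriptional cofactor. Its control levels lay between 1151 and 1294 TPM in the 9 rats, and its treated levels were 772, 712, and 884 TPM, 780, 743, and 807 TPM, and 539, 566, and 619 TPM at Years 0.5, 1, and 2. The log2 fold changes were -0.49 ± 0.08 (SE, FDR 0.00182), -0.44 ± 0.07 (FDR 0.00129), and -0.89 ± 0.09 (FDR 4.43e-05). *Hopx* is also expressed in heart muscle, and the 10 heart markers summed to between 75.1 and 808 TPM in control rats and between 16.4 and 239 TPM in treated rats. Of the heart markers tested, 7 of 8, 2 of 8, and 1 of 7 were lower at Years 0.5, 1, and 2. The part of heart RNA in the *Hopx* values was not tested.

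**Figure D2:**
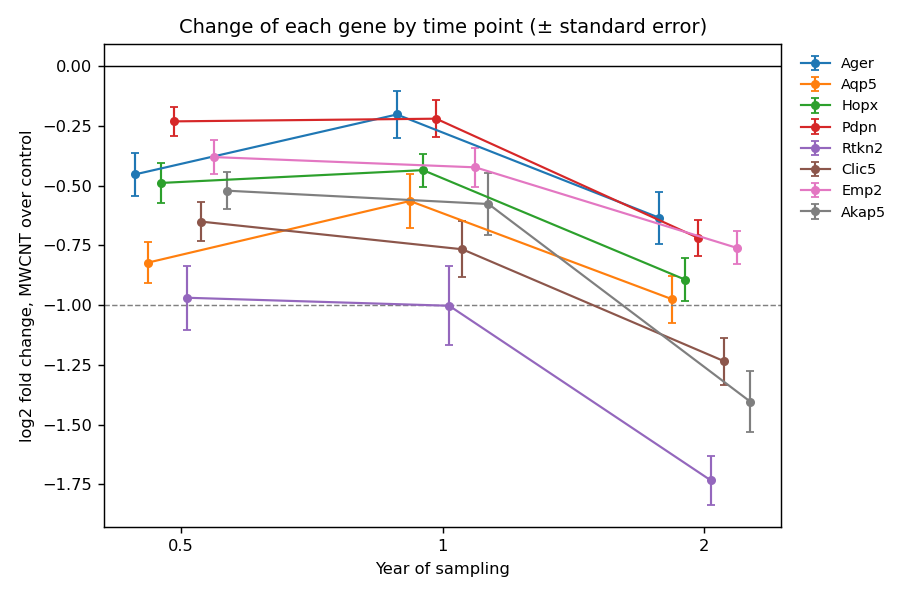
log2 fold change of MWCNT-treated over control rats (vertical axis) for each of the 8 genes at Years 0.5, 1, and 2, with bars for the standard error and a dashed line at -1. All points lie below 0, and *Rtkn2*, *Akap5*, and *Clic5* lie below -1 at Year 2.

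To ask whether the effect of treatment changed with time, the interaction of treatment and time was tested in a model of all 18 rats. Between Years 0.5 and 2, the interaction passed an FDR below 0.05 for 3 of the 8 genes, *Pdpn*, *Emp2*, and *Akap5*, while 1.31% of all genes passed in either direction and 0.451% in the negative direction. *Pdpn* fell by a further 0.48 ± 0.09 on the log2 scale (SE, FDR 0.0140), *Akap5* by 0.88 ± 0.19 (FDR 0.0287), and *Emp2* by 0.37 ± 0.09 (FDR 0.0497). The values of *Rtkn2* (-0.76 ± 0.23, FDR 0.118), *Clic5* (-0.58 ± 0.15, FDR 0.0690), and *Hopx* (-0.40 ± 0.11, FDR 0.0839) did not pass, and those of *Ager* (-0.17 ± 0.15, FDR 0.650) and *Aqp5* (-0.15 ± 0.15, FDR 0.729) were the smallest. Between Years 1 and 2, *Pdpn* passed (-0.48 ± 0.09, FDR 0.0286), against 0.478% of all genes in either direction and 0.162% in the negative. Between Years 0.5 and 1, no gene of the 14843 tested by edgeR passed. At an unadjusted p below 0.05 there were 0 of the 8, and DESeq2 also counted 0 of the 8.

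These interaction counts rested on single rats. Between Years 0.5 and 2, the count was 0 without MWCNT-treated replicate 1 of Year 2 and 6 without MWCNT-treated replicate 2 of Year 0.5. It was 1 (*Pdpn*) without any of the 3 control rats of Year 0.5, control replicate 1 or 2 of Year 2, MWCNT-treated replicate 1 or 3 of Year 0.5, or MWCNT-treated replicate 2 of Year 2. Between Years 1 and 2, the count was 5 without MWCNT-treated replicate 2 of Year 1, 3 without control replicate 3 of Year 2, and 2 without MWCNT-treated replicate 3 of Year 2. It was 0 without control replicate 2 or 3 or MWCNT-treated replicate 1 or 3 of Year 1, and without control replicate 1 or 2 or MWCNT-treated replicate 1 or 2 of Year 2. DESeq2 counted 6 of 8 in both comparisons. The share of all genes that passed with DESeq2 is not given here, and the shares above are those of edgeR.

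Within the MWCNT-treated rats, 6 of 8 genes were lower at Year 2 than at Year 0.5 (FDR below 0.05), all but *Ager* and *Aqp5*, and 6.87% of all genes were lower by that rule. *Rtkn2* fell by 1.04 ± 0.16 on the log2 scale (SE, FDR 0.000572) and was the single DEG, where 0.903% of all genes were DEGs that fell. That call was lost without MWCNT-treated replicate 3 of Year 0.5 or replicate 1 of Year 2, and *Akap5* joined it without replicate 3 of Year 2. *Akap5* fell by 0.90 ± 0.13 (FDR 0.000315), *Clic5* by 0.82 ± 0.11 (FDR 0.000134), *Emp2* by 0.64 ± 0.06 (FDR 1.64e-05), *Pdpn* by 0.52 ± 0.06 (FDR 6.51e-05), and *Hopx* by 0.37 ± 0.08 (FDR 0.00416). *Ager* changed by -0.21 ± 0.10 (FDR 0.196) and *Aqp5* by -0.13 ± 0.11 (FDR 0.475), neither past the test. The same 6 genes were lower at Year 2 than at Year 1, with 3.26% of all genes lower, and 0 were DEGs by edgeR and by DESeq2 (0.404% of all genes were), a count that became 1 (*Rtkn2*) without MWCNT-treated replicate 2 of Year 1. Between Years 0.5 and 1, 0 of the 8 genes passed in the treated rats by edgeR, with 1 (*Emp2*) at an unadjusted p below 0.05 and 0.0202% of all genes lower at the FDR. In the control rats, *Emp2* was the single gene of the 8 past the FDR between Years 0.5 and 2, when 4.00% of all genes were lower and 0.182% were DEGs that fell. The changes of the other 7 lay between -0.28 (*Rtkn2*, FDR 0.295) and 0.03 (*Hopx*, FDR 0.879). Between Years 1 and 2, 0 of the 8 passed in control rats by edgeR, with 1 (*Emp2*) at an unadjusted p below 0.05, while 5.00% of all genes were lower at the FDR and 0.249% were DEGs that fell.

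By level, the control rats of all 3 years gave the order *Ager*, *Hopx*, then a middle group of *Emp2*, *Aqp5*, *Clic5*, and *Pdpn*, then *Akap5* and *Rtkn2*. *Ager*, *Hopx*, *Akap5*, and *Rtkn2* did not overlap with their neighbors in TPM, and within the middle group most neighbors did. The treated rats of Years 0.5, 1, and 2 kept the first and the last places of this order. The lowest of the middle group was *Pdpn* in control rats of Years 0.5 and 1 and *Clic5* in those of Year 2, and in treated rats it was *Aqp5* at Year 0.5 and *Clic5* at Years 1 and 2, without overlap with its neighbors at Year 2. Since *Rtkn2* lost more than *Ager*, the ratio of their levels, 17.2 to 26.9 in the 9 control rats, was 25.1 to 31.3 at Year 0.5, 31.2 to 45.2 at Year 1, and 44.6 to 58.4 at Year 2 in the treated rats. The share of *Ager* in the summed level of the 8 genes was 31.7 to 36.5% in control rats and 37.5 to 40.9% in treated rats of Year 2. The sum itself was 5772 to 6757 TPM in the 9 control rats and 2865 to 3159 TPM in the 3 treated rats of Year 2.

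Rats within a group differed in a partly shared way. Over the 28 pairs of genes, Pearson's r of log2 CPM over the 18 rats ran from 0.82 to 0.99 with a median of 0.93; these points include the contrast between treated and control rats. After the group means were taken off, r ran from 0.05 to 0.88 with a median of 0.46, and the points share the library and its scaling factor. MWCNT-treated replicate 2 of Year 0.5, the most deeply counted library, and replicate 2 of Year 1 were the lowest of their groups in TPM for 8 of 8 genes, and in log2 CPM for 7 of 8. In the latter, *Rtkn2* deviated from the group mean by -0.46, *Akap5* by -0.34, and *Clic5* by -0.27 on the log2 CPM scale, while *Hopx* deviated by 0.01 and *Pdpn* by -0.02. The other rats of those groups were above the mean for *Rtkn2*, *Akap5*, and *Clic5*.

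**Figure D3:**
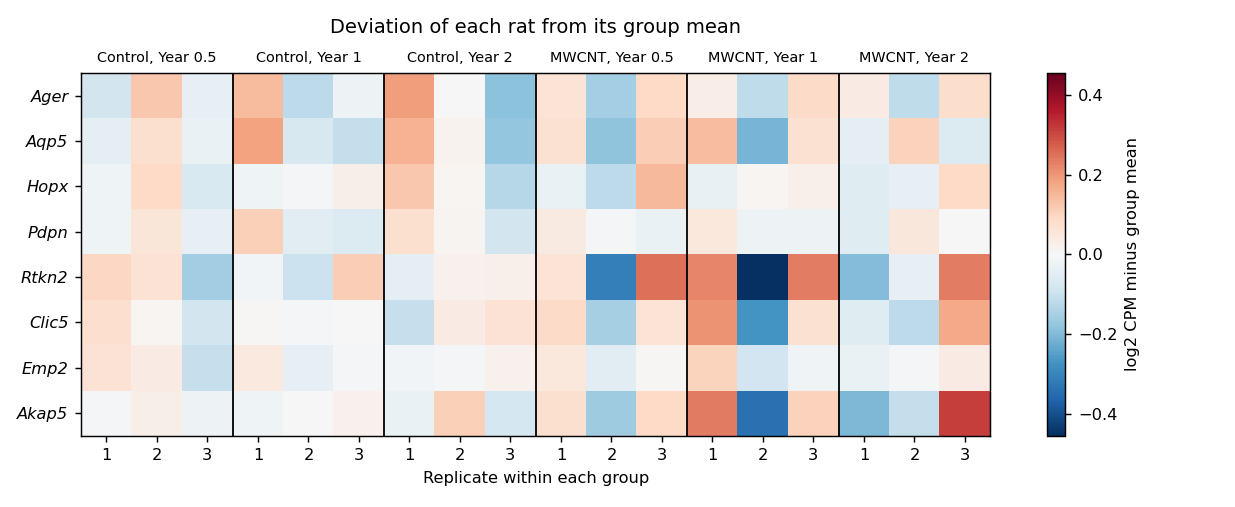
Deviation of each rat's log2 CPM from the mean of its group (color, red above and blue below) for the 8 genes (rows) in the 18 rats (columns, by replicate within each group). The strongest deviations are those of *Rtkn2*, *Akap5*, and *Clic5* in MWCNT-treated rats, with replicate 2 of Year 1 the lowest at -0.46 for *Rtkn2*.

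The 8 genes were then set beside 20 other genes known from type 1 cells. Of these 20, 13 were lower at Year 0.5, 15 at Year 1, and 16 at Year 2 (FDR below 0.05), 2, 1, and 1 were higher, and the rest did not pass, with medians of -0.49, -0.64, and -0.73 on the log2 scale. *Cav1*, which encodes the caveolin of the many caveolae of type 1 cells, had the largest fall of them, with log2 fold changes of -1.06, -1.13, and -1.77 (SE 0.12 at Year 2). *Spock2*, which encodes a matrix proteoglycan, followed with -0.78, -0.85, and -1.68 (SE 0.17). The part of other cells, such as those of capillaries, in the values of these 20 genes was not tested. The most abundant of the 20, *Cldn18*, which encodes the tight-junction claudin shared by type 1 and type 2 cells, went the other way, with 0.44, 0.47, and 0.33 (SE 0.08). Its rise at Year 2 did not pass with library size alone (0.15, FDR 0.132) or on log2(TPM + 1) (0.11, FDR 0.283), and its levels there were 660, 709, and 784 TPM in control and 796, 733, and 791 TPM in treated rats.

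Type 2 cell markers were higher while type 1 genes were lower. Of 10 markers, 10, 8, and 9 were higher at Years 0.5, 1, and 2 and 0 were lower, with a median of 0.99 at Year 2. With library size alone, and likewise on log2(TPM + 1), 9, 7, and 7 were higher and 0, 1, and 1 lower. For these and later counts of higher genes, taken at the FDR alone, the share of all genes is not given here. As DEGs, 4, 4, and 5 of the 10 markers were higher. Of all genes, 869 of 14315, 880 of 14345, and 1174 of 14361 were DEGs that rose. *Sftpc*, the surfactant protein C gene, rose by 0.96, 0.97, and 1.004 on the log2 scale, *Sftpa1* by 1.497, 1.39, and 1.55, and *Sftpd* by 1.31, 1.44, and 1.90. The ratio of *Sftpc* to *Ager* in TPM was 8.29 to 11.8 in the 9 control rats and 22.9 to 29.3 in the 9 treated rats, without overlap. Of 10 markers of the transitional state between the cell types, 7 were higher at each year, among them *Areg*, a growth factor gene (2.66, 2.15, and 3.33), and *Lgals3*, the galectin 3 gene, which macrophages also express (2.21, 2.48, and 3.03). The keratin genes of this list, *Krt8*, *Krt18*, and *Krt19*, named after their values were seen, did not pass at Year 2, with log2 fold changes of 0.14, 0.30, and -0.23. At Year 1 *Krt18* was higher (0.33, FDR 0.0161), though not past the test with library size alone (0.20, FDR 0.0985). *Krt8* and *Krt19* did not pass at any year.

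Of the 15 regulators of the type 1 state, 9, 9, and 10 were lower and 3, 2, and 2 higher at Years 0.5, 1, and 2, and the median at Year 2 was -0.46, against -0.93 for the 8 genes. *Amotl2*, a YAP-binding protein gene that is itself induced by YAP, was the single DEG, with log2 fold changes of -0.70, -0.58, and -1.14 (SE 0.13 at Year 2). *Nkx2-1*, the lung lineage factor of both alveolar cell types, was higher, with 0.49, 0.555, and 0.47 (SE 0.06). Chosen after their values were seen, *Yap1* (-0.38), *Wwtr1*, which encodes TAZ (-0.46), *Tead1* (-0.94), and *Tead4* (-0.88) were each lower at Year 2. So were *Lats2* (-0.90) and *Ajuba* (-0.92), chosen in the same way, and *Ccn2*, a common YAP target, was higher (0.63).

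Markers of other cells moved in the same comparisons. The 8 alveolar capillary markers analysed were lower in 8 of 8 at each year, and their sum was 3052 to 4295 TPM in control rats and 715 to 1982 TPM in treated rats. The largest part of that sum was *Plvap*, at a mean of 1478 TPM over all rats. *Plvap*, a capillary diaphragm gene, had log2 fold changes of -1.20, -0.94, and -2.23, and *Tek*, an endothelial receptor gene, -1.10, -1.04, and -1.81. Of 8 alveolar macrophage markers, 7, 7, and 8 were higher, with *Cd68* at 2.44, 2.50, and 3.03, and *Chi3l1* at 2.09, 2.32, and 2.27. *Marco*, a scavenger receptor gene of these cells, had 0 to 7 counts in each control rat and 26 to 130 in each treated rat. The sum of the 8 was 336 to 455 TPM in control rats and 1198 to 1689 TPM in treated rats, with *Chi3l1*, at a mean of 441 TPM over all rats, its largest part. Of the 5 airway markers, 4, 5, and 4 were lower, with *Tppp3* at -1.25, -1.24, and -1.91, *Cyp2f4* at -1.35, -1.54, and -1.38, and *Scgb1a1*, the club cell secretory protein gene, at -0.87, -0.91, and -0.80. Of 5 lymphatic markers, 3, 3, and 2 were lower, with *Lyve1* at -0.87, -1.38, and -2.08. Of 5 mesothelial markers, 3 were higher at Year 1, a count that was 1 with library size alone or on log2(TPM + 1), and at Year 2 *Msln* was higher (0.71) while *Bnc1* (-1.14, at a mean of 1.03 TPM) and *Upk3b* (-0.95, named after its values were seen) were lower. The heart gene *Actc1* had -1.62, -1.27 (FDR 0.108), and -1.99. The part of a changed cell makeup in the values of the 8 genes was not tested.

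**Figure D4:**
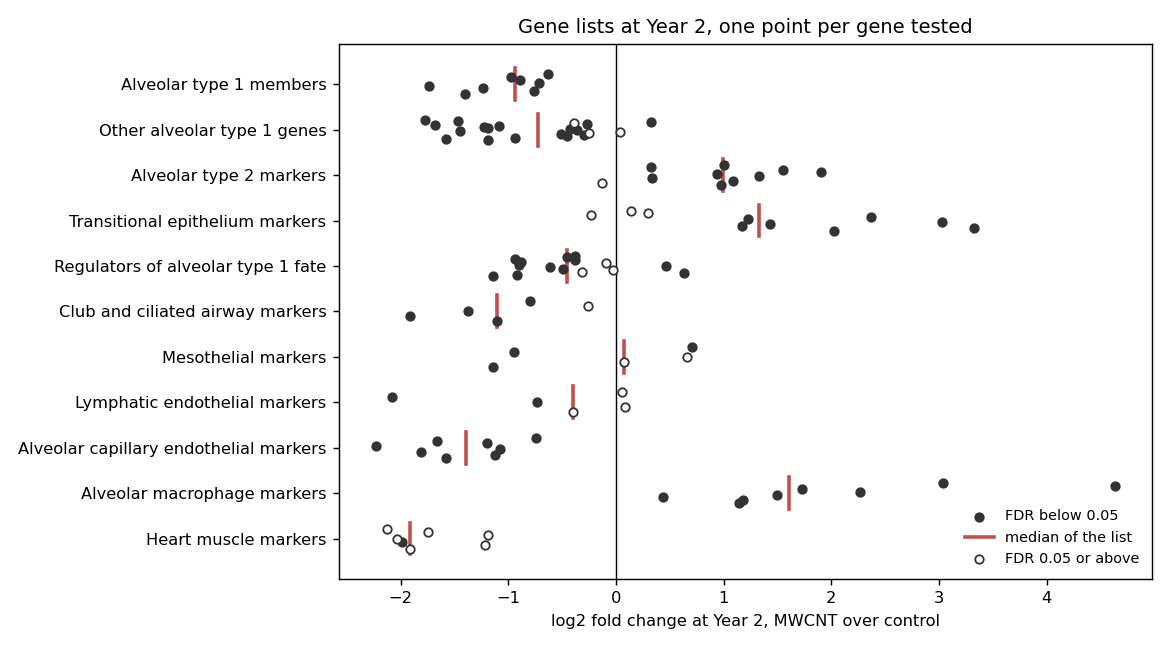
log2 fold change at Year 2 of MWCNT-treated over control rats (horizontal axis) for each gene tested in the 8 alveolar type 1 genes and in 10 other lists (rows), filled where the FDR was below 0.05 and open elsewhere, with a red line at the median of each list. The 8 genes, the other type 1 genes, and the capillary markers lie mostly left of 0, and the type 2, transitional, and macrophage markers mostly right of it.

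Among all genes, those whose log2 CPM followed the mean of the 8 genes most closely over the 18 rats were *Synm* (Pearson's r 0.991), *Bmp6* (0.989), *Slc7a10* (0.989), *Tspan7* (0.989), and *Rab6b* (0.989), out of 13883 genes ranked. Their log2 fold changes at Year 2 were -1.77, -1.26, -3.52, -1.38, and -1.86. For single genes, the closest were *Epas1*, which encodes a hypoxia-inducible factor, for *Rtkn2* (0.995), *Slc7a10* for *Akap5* (0.993), *Akap2* for *Clic5* (0.993), *Lrrn3* for *Emp2* (0.990), *RT1-T24-4* for *Hopx* (0.988), *Gsta4* for *Pdpn* (0.983), *Ppp1r14a* for *Aqp5* (0.979), and *Ooep* for *Ager* (0.971). *Slc7a10* thus appeared as the closest gene to *Akap5* and among the closest to the mean. All these correlations share the same 18 rats and the contrast between treated and control animals.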

How the data were processed

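Lung RNA from 18 rats was sequenced. Reads were aligned and summed per gene by the authors in CLC Genomics Workbench 22.0.2, and the deposited counts are not normalized. The genome build, Rnor_6.0 (rn6), is that of the submitters' processing notes; how reads mapping to several places were counted is not given in the sources used here. Levels are given in TPM as the authors deposited them. Other deposited columns (RPKM, CPM, and the authors' own fold changes and p-values) were not used. Groups were taken from the sample labels.

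The counts were tested with edgeR 4.0.16 in R 4.3.3, with filterByExpr at its defaults (minimum count 10, minimum total 15), TMM factors, and the quasi-likelihood test, on the 6 rats of each year for treatment and on all 18 rats for time and interaction. P-values were adjusted by Benjamini-Hochberg over all genes tested; a DEG had a log2 fold change beyond 1 in either direction at an FDR below 0.05, and interactions an FDR below 0.05. Standard errors were derived from the fold change and the F statistic. Log2 CPM used a prior count of 2. Figures were drawn in Python 3.11.15 with matplotlib 3.10.9. Counts were also simulated, with the same spread between rats set for every gene. In the simulated Year 2 comparison (14331 genes), 80% of genes changed 2-fold and 100% of those changed 4-fold were recovered. For the interaction of Years 0.5 and 2 (14641 genes), 35% and 100% were.

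The 8 genes and all lists were chosen with earlier results of these data known. From each list, the text names the up to 2 genes with the largest rise and fall among DEGs at Year 2 and the gene with the highest mean TPM (no gene was a DEG in opposite directions at different years), and other genes only where it says so; genes alike in pattern were the 5 closest to the mean of the 8 and the closest to each, among genes with a mean log2 CPM of at least 0. *Foxj1*, *Car4*, and *Pecam1* were not analysed here. Alternatives were no filter, 10 counts in every rat, library size only, upper quartile scaling, DESeq2 1.42.0, limma 3.58.1 on log2(TPM + 1) and log2(TPM + 0.1), the FDR alone, other sets of rats in the fit, a replicate block, and each rat left out. No libraries of a group agreed within sampling noise (lowest chi-square per gene 6.24).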

Additional observations from a re-analysis of the deposited data

Results flagged for a closer look

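The effect of treatment differed between time points at an FDR below 0.05 in 5 flagged results (edgeR interaction term, all 18 rats). *Pdpn* had an interaction of -0.48 (SE 0.09, FDR 0.0140) between Years 0.5 and 2 and of -0.48 (SE 0.09, FDR 0.0286) between Years 1 and 2, in log2 units, so the fall in treated rats was larger at Year 2. *Akap5* had -0.88 (SE 0.19, FDR 0.0287) and *Emp2* had -0.37 (SE 0.09, FDR 0.0497) between Years 0.5 and 2. *Lgals3*, from the list of transitional markers, had 0.83 (SE 0.18, FDR 0.0295) in the same comparison, a larger rise at Year 2. *Mrc1*, a macrophage marker named after its values were seen, was not flagged but also passed between Years 1 and 2 (1.06, SE 0.20, FDR 0.0309). Of all genes, 1.31% passed between Years 0.5 and 2 and 0.478% between Years 1 and 2, in either direction. The calls among the alveolar type 1 genes examined depended on single rats. Leaving out 1 rat at a time, from 0 to 6 of these genes passed between Years 0.5 and 2, most often *Pdpn* alone. Between Years 1 and 2, from 0 to 5 passed, and the *Pdpn* call was also lost with only the rats compared. These ranges do not cover *Lgals3* or *Mrc1*. All 3 treated rats of Year 2 lay below all 3 treated rats of Year 0.5 in TPM for *Pdpn*, *Akap5*, and *Emp2*. The same held for *Ager* (at most 1255 against at least 1271 TPM), *Hopx*, *Rtkn2*, and *Clic5*. Their interactions did not pass (FDR 0.650, 0.0839, 0.118, and 0.0690). For *Aqp5* the treated rats of Years 0.5 and 2 overlapped. The separation also held for *Emp2* in control rats (603 to 654 against 714 to 796 TPM). This separation is thus no measure of the interaction, and its share among all genes was not counted.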

How the results depend on the processing

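Over the 3 treatment comparisons of the 8 genes, 349 values under the alternatives kept their direction and their side of the FDR threshold, regardless of the fold limit, 8 lost the FDR call (all *Pdpn*), 3 gained it (all *Ager* at Year 1), and 0 turned. In the comparisons over time, 1083 kept both, 39 lost the FDR call, 28 gained it, and 2 turned, neither of them called: between Years 0.5 and 1 in treated rats, *Rtkn2* became 0.0082 and *Akap5* 0.058 without MWCNT-treated replicate 2 of Year 1, within ranges of -0.33 to 0.0082 and -0.22 to 0.058 on leaving out each rat. The cause was not tested.

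Counts of DEGs among the 8 followed the fold limit. With the FDR alone they were 8, 7, and 8 at Years 0.5, 1, and 2, and over time 1 (control, Year 2 against Year 0.5), 6 (treated, Year 2 against Year 0.5), and 6 (treated, Year 2 against Year 1). At Year 0.5 the count of 0 became 1 with library size only, upper quartile scaling, and limma with either pseudocount. At Year 1 the count of 1 became 2 with limma, with either pseudocount. At Year 2 the count of 3 became 5 with library size only and with limma, with either pseudocount. Over all genes, the DEGs that were lower also rose in number with library size only. They went from 434 to 643 of 14315 at Year 0.5 and from 1181 to 1583 of 14361 at Year 2. With upper quartile scaling they were 499 at Year 0.5. In treated rats between Years 0.5 and 2 the count of 1 became 2 with limma on log2(TPM + 0.1). For the interaction, 3 genes between Years 0.5 and 2 became 6 with DESeq2, and 1 between Years 1 and 2 became 6 with DESeq2, 2 with 10 counts in every rat, and 0 with only the rats compared. The shares of all genes called with DESeq2, with limma, with 10 counts in every rat, or with only the rats compared are not given here.

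Leaving out 1 rat at a time, DEG counts ranged from 0 to 1 at Year 0.5, 0 to 1 at Year 1, and 3 to 4 at Year 2, and in treated rats from 0 to 2 between Years 0.5 and 2 and from 0 to 1 between Years 1 and 2. Genes lower at the FDR alone ranged from 7 to 8, 6 to 7, and 8 to 8. Interactions ranged from 0 to 6 (Years 0.5 and 2), 0 to 5 (Years 1 and 2), and 0 to 0 (Years 0.5 and 1).

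The replicate numbers that recur in the labels showed no sign of pairing rats. Deviations from the group means correlated at 0.01 on average over the 9 pairs with the same number (range -0.21 to 0.16). The value of -0.01 over the 18 others is no separate check, since deviations cancel within a group and tie the 2 averages together. With the replicate number as a block, the DEG counts were 0, 1, and 3 and the counts at the FDR alone 8, 6, and 8, *Pdpn* at Year 1 being the one lost. On simulated counts with the same spread between rats set for every gene, 35% of 2-fold interactions were recovered with 3 rats per group. That share need not hold for the 8 genes, whose interactions between Years 0.5 and 2 had standard errors of 0.09 to 0.23. How many changes were missed among them was not tested.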

Other observations

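The 20 other type 1 genes differed among themselves; the genes below were picked with their values already known. The caveolar genes *Cav1* and *Cav2* had log2 fold changes at Year 2 of -1.77 and -1.47, and at Year 0.5 of -1.06 and -0.91. The genes of the basement membrane collagen chains, *Col4a3* and *Col4a4*, had -0.58 and -0.53 at Year 0.5 and -1.23 and -1.19 at Year 2. *Vegfa*, through which the alveolar epithelium signals to capillaries, had -0.87, -0.77, and -1.45 at Years 0.5, 1, and 2. The sodium channel subunits *Scnn1a* and *Scnn1g* had -0.45 and -0.94 at Year 2. *Igfbp2*, a marker of mature type 1 cells, had -1.16 and -0.71 at Years 0.5 and 1 and -0.39 at Year 2, where it did not pass (FDR 0.164). Its interaction of treatment and time did not pass between Years 0.5 and 2 (0.78, SE 0.32, FDR 0.283) or between Years 1 and 2 (0.34, SE 0.32, FDR 0.643). *Krt7* and *Gramd2a* had -0.25 (FDR 0.0937) and 0.04 (FDR 0.812) at Year 2 and did not pass.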
